A study of Mus musculus with 20 samples.

Results

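Mesoderm cells that lacked the de novo DNA methyltransferases Dnmt3a and Dnmt3b and had been cultured with Gata4 active (DKO Dex+) were compared with primitive endoderm of the same genotype made directly from ES cells (DKO PE), gene by gene and without selection of genes. These were 4 of the 20 arrays of the study, 2 per group, and 18194 genes were tested, all those with a single gene symbol on the array. Both groups were Dnmt3a-/-Dnmt3b-/- J1 mouse ES cells of the 129sv/Jae strain, from 1 transgenic clone, so clone and genotype cannot be told apart. Both groups stably carried Gata4GR, a fusion of Gata4 with the part of the glucocorticoid receptor that binds ligand, driven by the ubiquitous CAG promoter, and both had received dexamethasone (Dex), the ligand that activates the fusion protein, for 4 days. DKO Dex+ cells had first been differentiated on type IV collagen, sorted as cells positive for both Flk1 and PDGFRα, and put back on collagen with Dex in α-MEM medium without LIF. DKO PE had been given 100 nM Dex as ES cells in GMEM medium with LIF. Medium, LIF, substrate and time since the ES state therefore differed together with the starting cell, and their parts in any difference below cannot be told apart. For context the other DKO states were read: undifferentiated ES cells, the freshly sorted Flk1(+) mesoderm (in which replicate 1 came from the parental line without the transgene) and sorted mesoderm cultured without Dex (DKO Dex-). The same step in wild-type cells (WT Dex+ against WT PE, 1 clone) was the other comparison.

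Primitive endoderm is the early embryonic layer that gives rise to the visceral and parietal endoderm of the yolk sacs. It is driven by Gata6, Gata4, Sox17 and Sox7, and its cells lay down a basement membrane rich in type IV collagen and laminin. Gata4 also acts in mesoderm, where it works with Hand2, Tbx20 and Mef2c in the heart, so that the same factor serves an endoderm programme and a cardiac one. The mesoderm sorted here gives vascular mural cells, which carry smooth muscle actin and transgelin, when it is cultured on collagen.

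Levels are given as deposited, as log2 values after RMA (robust multi-array averaging), and differences are DKO Dex+ minus DKO PE in log2 units, followed by ± and their standard error from the linear model. A gene passed where its Benjamini-Hochberg adjusted p in limma was under 0.05 and the difference at least 2-fold. A gene is called higher or lower only where it passed. With 2 arrays per group no exact test of a single gene can go below p = 0.333, two-sided, and the p-values rest on the spread pooled over all 10 groups. The freshly sorted groups, each mixing a line with and a line without the transgene, had the widest spread. Between their 2 arrays 880 genes in WT and 698 in DKO were at least 2-fold apart.

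The 2 targeted genes were low in all 4 arrays. Dnmt3b stood at 6.20 and 6.11 in DKO Dex+ cells, against 6.64 and 6.85 in DKO PE, and in WT PE at 12.06 and 12.30. Dnmt3a stood at 6.51 and 6.83 in DKO Dex+ cells, against 6.18 and 6.64 in DKO PE, and in WT PE at 8.30 and 8.58. Which exons the probes read was not examined. Neither gene passed between the groups, and nor did Gata4, which was at 10.18 and 10.13 in DKO Dex+ cells, against 10.37 and 10.48 in DKO PE. Transgene and endogenous Gata4 were not separated.

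The 2 DKO Dex+ arrays correlated at 0.994 across genes and had 80 genes at least 2-fold apart, and the 2 DKO PE arrays at 0.996 and 42 genes. Between the groups the correlation was 0.975 to 0.977, and 932 genes differed at least 2-fold by their means. DKO Dex+ arrays were scanned on 1 day together with DKO PE replicate 2, while DKO PE replicate 1 was scanned on another. All 4 came from the same chip lot.

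Most markers of primitive endoderm did not pass between the groups. Of 9 such markers 0 were higher (2.73% of all genes were) and 1, Sox7, was lower (1.74% of all genes) in DKO Dex+ cells. Their summed level, the log2 of the sum of their linear values, was 15.95 to 16.10 in DKO Dex+ cells and 16.23 to 16.31 in DKO PE. In DKO Dex- cells it was 14.13 to 14.18. Col4a1 was the brightest of these markers and weighed most in the sum. Its means were 14.41 in DKO Dex+ cells, 14.46 in DKO PE and 13.55 in DKO Dex- cells. Single markers could lie further apart, as did Sox17, with means of 12.72 in DKO Dex+ cells and 7.38 in DKO Dex- cells. Dab2, an endocytic adaptor that marks this lineage, stood at 13.35 and 13.58 in DKO Dex+ cells, against 13.35 and 13.58 in DKO PE (-0.00 ± 0.54). It was not low in DKO Dex- cells either, with a mean of 11.91. Pdgfra stood at 12.99 and 13.06 in DKO Dex+ cells, against 13.35 and 13.45 in DKO PE (-0.37 ± 0.23). The sorted DKO cells, by comparison, had Pdgfra at 12.26 and 11.87. The label of the cultured DKO Dex+ cells still reads mesoderm, and of the defining genes Pdgfra was high in them while Kdr and Mesp1 were low. The Flk1 gene Kdr was at 7.56 and 7.62 in DKO Dex+ cells, against 7.02 and 6.79 in DKO PE, and at 12.30 and 12.23 in freshly sorted DKO cells. Mesp1, a factor of nascent mesoderm, was at 6.21 and 6.20 in DKO Dex+ cells, against 6.21 and 6.31 in DKO PE, and at 10.50 and 9.76 in sorted cells.

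In total 813 of the 18194 genes passed (4.47%), of which 496 were higher (2.73%) and 317 lower (1.74%) in DKO Dex+ cells. At an unadjusted p under 0.05 in limma the count was 3418. The larger differences leaned upwards: 53 genes were at least 8-fold higher and 14 at least 8-fold lower, while the median over all genes was -0.01. Genes of heart muscle gave the 3 largest increases, and the largest decreases were those of Ptk6, Dnmt3l and Cmklr1. Within the scan day that held 3 of the 4 arrays, 593 genes passed, 552 of the 813 kept their call, and 745 kept their direction and a size of 2-fold or more. Counts in the gene lists below are to be read beside the shares over all genes, 2.73% higher and 1.74% lower. The plot of the 30 leading genes shows their values in each array.

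**Figure D1:**
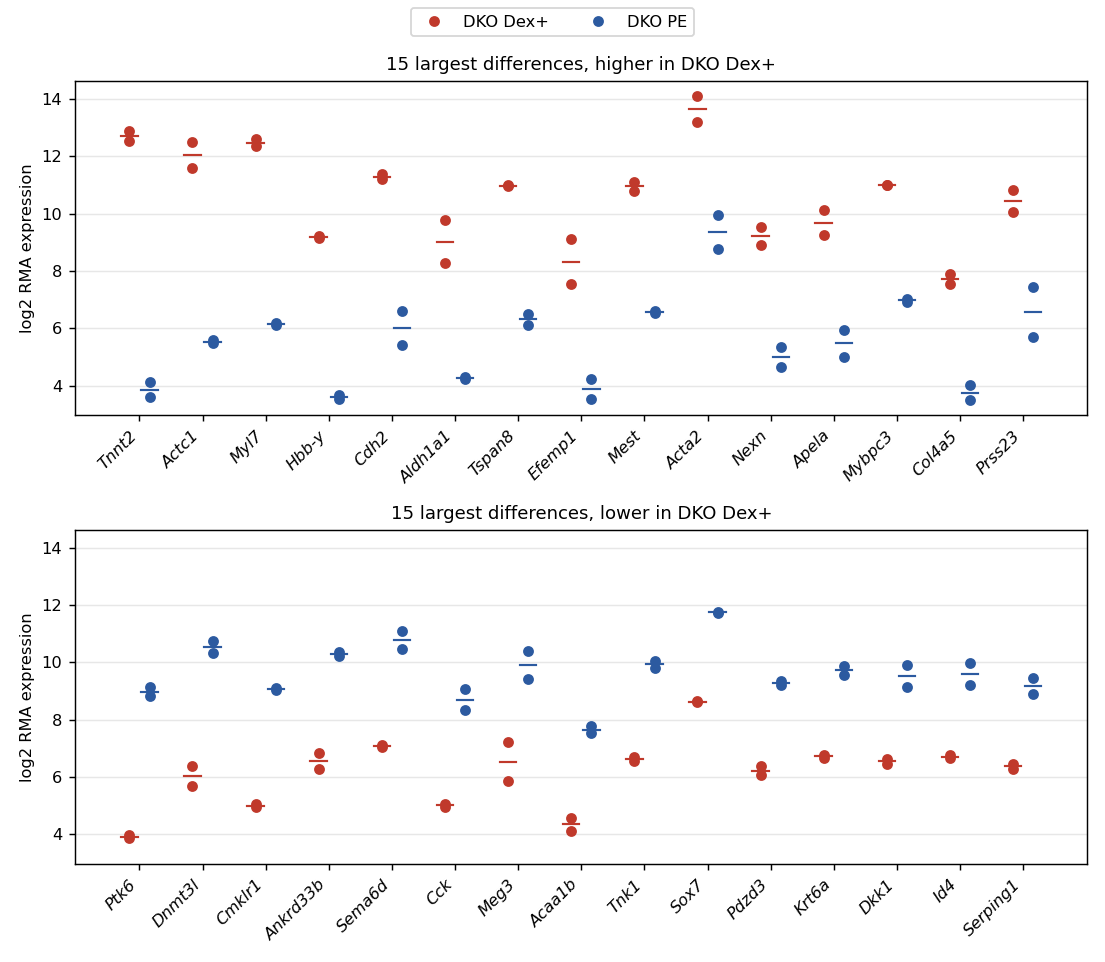
Log2 RMA expression (vertical axis) of the 15 genes with the largest increases and the 15 with the largest decreases that passed, in DKO Dex+ cells (red) and DKO PE (blue). Points are arrays and lines are means of 2, and for each gene the arrays of one group lie apart from those of the other, as the choice of these genes required.

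Cardiac sarcomere genes gave the 3 largest increases. Tnnt2, cardiac troponin T, stood at 12.87 and 12.54 in DKO Dex+ cells, against 4.11 and 3.62 in DKO PE. The difference of 8.84 ± 0.53 (adjusted p = 1.09e-07) was the largest of all genes that passed, and of its 2 other probe sets one differed by 8.12 and the other, which was dim (5.47 in DKO Dex+ cells and 4.91 in DKO PE), by 0.56. Actc1, the cardiac alpha actin, was at 12.49 and 11.59 in DKO Dex+ cells, against 5.58 and 5.49 in DKO PE (6.51 ± 0.56, adjusted p = 3.05e-06). Both groups were tight for Myl7, the regulatory light chain of atrial myosin, at 12.59 and 12.36 in DKO Dex+ cells, against 6.17 and 6.11 in DKO PE (6.34 ± 0.22, adjusted p = 2.14e-10). Mybpc3, cardiac myosin-binding protein C, was at 11.005 and 11.01 in DKO Dex+ cells, against 6.92 and 7.02 in DKO PE (4.03 ± 0.25). All 4 were low in DKO PE, with means no higher than those of DKO ES cells, in which Tnnt2 was at 4.37 and 4.78. Of the 21 genes of the sarcomere and calcium handling list 11 were higher, 0 lower and 10 did not pass, with a median difference of 1.21. Myl4, a light chain of atrial and embryonic muscle (3.21 ± 0.35), and the slow troponin I Tnni1 (2.32 ± 0.26) were the next by size.

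Transcription factors of the heart field moved in the same direction in smaller number. Of 19 such factors 5 were higher, 0 lower and 14 did not pass, with a median of 0.25. Hand2 was at 8.62 and 9.05 in DKO Dex+ cells, against 5.90 and 6.30 in DKO PE (2.74 ± 0.39), on 1 of its 3 probe sets only, the other 2 being dim and differing by -0.01 and 0.09. Myocd, the coactivator of smooth and cardiac muscle genes, was at 9.35 and 9.02 in DKO Dex+ cells, against 6.77 and 6.45 in DKO PE (2.58 ± 0.41). Tbx20 was at 11.25 and 11.13 in DKO Dex+ cells, against 9.26 and 8.32 in DKO PE and lost significance without DKO Dex+ replicate 1 or DKO PE replicate 2. The remaining ones were Tbx18 (1.78) and Mef2c (1.34), and Mef2c did not pass without DKO Dex+ replicate 2 or DKO PE replicate 2. Nkx2-5, the early cardiac homeobox gene, differed by 0.81 ± 0.14 (adjusted p = 0.00198), short of 2-fold, at 6.66 and 6.43 in DKO Dex+ cells, against 5.80 and 5.68 in DKO PE. Hand1 was at 6.73 and 6.98 in DKO Dex+ cells, against 6.50 and 6.70 in DKO PE and did not pass.

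The window of RefSeq promoter sequence (GRCm38.p6, 250 bases before to 50 after the start of transcription) is shown for the 2 leading higher genes that hold a GATA motif, AGATAA or TGATAA on either strand, and for the leading lower gene with 1 listed start that does. Gata4 was active in both groups, and the letters describe the sequence and not binding. The Tnnt2 window lies at chr1:135836084-135836383 on the plus strand, and the other listed start of that gene has no match. The Myl7 window lies at chr11:5898733-5899032 and the Cck window at chr9:121495645-121495944, both on the minus strand. Capitals mark the motif, which begins 166 bases before the start in Tnnt2, 42 in Myl7 and 189 in Cck.
Tnnt2: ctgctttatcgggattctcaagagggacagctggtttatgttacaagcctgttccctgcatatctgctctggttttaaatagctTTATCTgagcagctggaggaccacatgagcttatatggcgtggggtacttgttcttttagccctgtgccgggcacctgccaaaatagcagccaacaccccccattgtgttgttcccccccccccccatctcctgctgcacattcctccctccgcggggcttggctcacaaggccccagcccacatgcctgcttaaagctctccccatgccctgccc
Myl7: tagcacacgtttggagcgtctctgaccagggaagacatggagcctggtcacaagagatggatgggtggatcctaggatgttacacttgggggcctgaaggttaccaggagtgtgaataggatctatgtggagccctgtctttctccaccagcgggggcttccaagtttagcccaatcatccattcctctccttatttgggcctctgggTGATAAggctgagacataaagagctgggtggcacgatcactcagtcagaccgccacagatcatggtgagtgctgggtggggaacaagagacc
Cck: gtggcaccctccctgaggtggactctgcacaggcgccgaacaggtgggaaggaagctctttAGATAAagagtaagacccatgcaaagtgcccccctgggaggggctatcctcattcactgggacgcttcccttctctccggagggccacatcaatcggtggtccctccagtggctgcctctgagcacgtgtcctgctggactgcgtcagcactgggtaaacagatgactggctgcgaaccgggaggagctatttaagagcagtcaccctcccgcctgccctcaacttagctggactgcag
The motif was present in 70 of 533 windows of the genes higher in DKO Dex+ cells (13.1%), in 25 of 326 windows of those lower (7.67%) and in 2333 of 18110 windows of all genes tested (12.9%). Windows were listed for 388 of the 496 higher genes, 244 of the 317 lower ones and 14453 of all. CG pairs numbered 16 per window at the median for the higher genes, 14 for the lower and 16 for all. Neither letters nor CG pairs were tested between these lists.

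Some smooth muscle and mural cell genes were also higher. Of 19 genes 6 were higher, 0 lower and 13 did not pass (median 0.54). Acta2, smooth muscle alpha actin, stood at 14.09 and 13.19 in DKO Dex+ cells, against 9.94 and 8.78 in DKO PE, and its difference was 4.28 ± 0.40 (adjusted p = 6.60e-06), but the 2 other probe sets, both dim, differed by 0.66 and 0.04. The actin-binding Tagln was at 12.70 and 11.63 in DKO Dex+ cells, against 10.18 and 9.02 in DKO PE (2.57 ± 0.43). Actg2 was at 7.52 and 6.51 in DKO Dex+ cells, against 4.56 and 4.51 in DKO PE (2.48 ± 0.42). Tropomyosins 2 and 1 (Tpm2, 2.05, and Tpm1, 1.72) and the light chain Myl9 (1.85, lost without any 1 of 3 arrays, DKO Dex+ replicate 1 or either DKO PE array) completed the 6. Calponin (Cnn1) was at 7.05 and 6.69 in DKO Dex+ cells, against 6.42 and 6.35 in DKO PE, and Pdgfrb, the receptor that defines mural cells, at 5.31 and 5.53 in DKO Dex+ cells, against 7.14 and 6.79 in DKO PE. Neither passed. The summed level of the 6 mural cell markers was 13.75 to 14.68 in DKO Dex+ cells and 10.52 to 11.45 in DKO PE, against 15.91 to 15.93 in DKO Dex- cells, and 4 of the 6 were higher. In DKO Dex+ cells Acta2, with a mean of 13.64, weighed most in this sum, followed by Tagln at 12.16, while Pdgfrb, at 5.42, hardly counted. The summed level of the 3 cardiac markers was 13.46 to 13.75 in DKO Dex+ cells and 7.05 to 7.18 in DKO PE, against 9.24 to 10.60 in DKO Dex- cells. Whether other cell types among the cultured cells contributed to the differences was not tested, and in bulk samples a larger share of cells of a type and more RNA per cell cannot be told apart.

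Of matrix and mesenchymal genes only some moved. The fibrillar collagen and matrix list had 4 of 27 genes higher and 2 lower (median 0.28). The collagen chain Col1a2 was at 10.39 and 10.03 in DKO Dex+ cells, against 6.42 and 6.52 in DKO PE (3.74 ± 0.49), Col5a2 differed by 3.44 ± 0.59, fibronectin (Fn1) by 2.53 ± 0.18 and Thbs1 by 1.39 ± 0.40, and Thbs1 did not pass when any 1 of the 4 arrays was left out. Col1a1, the partner of Col1a2 in type I collagen, was at 7.59 and 7.06 in DKO Dex+ cells, against 6.14 and 6.17 in DKO PE and did not pass (adjusted p = 0.115). Of the type VI collagen chains, 2 went the other way, with Col6a1 at 5.92 and 5.70 in DKO Dex+ cells, against 7.46 and 7.76 in DKO PE (-1.80 ± 0.19) and Col6a2 at 7.0 and 6.85 in DKO Dex+ cells, against 8.77 and 8.96 in DKO PE (-1.94 ± 0.17). Among mesenchymal factors and cadherins 3 of 17 were higher and 1 lower. N-cadherin (Cdh2) stood at 11.37 and 11.20 in DKO Dex+ cells, against 6.60 and 5.42 in DKO PE (5.27 ± 0.41) and differed by 4.69 on its second probe set. Zeb2, a repressor of epithelial genes, was higher by 2.05 ± 0.34 and vimentin (Vim) by 1.06 ± 0.25, while the homeobox gene Msx2 was lower (-1.48 ± 0.28). Vim lost its call without DKO Dex+ replicate 1 or DKO PE replicate 1. The caveolae and actin linked list had 3 of 15 higher and 0 lower, namely Anxa1 (3.22, lost when any 1 of the 4 arrays was left out), Cavin1 (2.20) and Lgals1 (1.84, lost without DKO Dex+ replicate 1 or DKO PE replicate 2), and the caveolin Cav1 was at 6.55 and 6.28 in DKO Dex+ cells, against 6.32 and 6.22 in DKO PE. The other probe sets of Cavin1, both dim, differed by -0.09 and -0.11, and its call was lost when probe sets were averaged. Epithelial genes were split: 2 of 20 were higher, the desmosomal Dsp (2.48 ± 0.29) among them, and 2 lower, the adhesion molecule Epcam (-2.15 ± 0.39) and the splicing factor Esrp1 (-2.07 ± 0.35). Pkp2 (2.27), Perp (2.04) and Marveld2 (1.36) lay above 0 by more than 2-fold but did not pass. Of all 20 genes 10 lay above 0 (median 0.12). The second probe set of Epcam, which can cross-hybridise, was at 8.97 in DKO Dex+ cells and 9.04 in DKO PE, a difference of only -0.07.

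The fibulin Efemp1 (4.44 ± 0.53), the Z-disc protein Nexn (4.23 ± 0.28), the tetraspanin Tspan8 (4.67 ± 0.28), the basement membrane chain Col4a5 (3.98 ± 0.66) and the protease Prss23 (3.88 ± 1.07) were among the 15 largest increases. Tspan8 was at 10.98 and 10.97 in DKO Dex+ cells, against 6.50 and 6.12 in DKO PE, with little spread in either group. Prss23 was at 10.83 and 10.07 in DKO Dex+ cells, against 7.43 and 5.71 in DKO PE and did not pass when any 1 of the 4 arrays was left out. Apela, a peptide ligand of the apelin receptor, was at 10.11 and 9.25 in DKO Dex+ cells, against 5.95 and 5.01 in DKO PE (4.20 ± 0.57), while that receptor, Aplnr, was at 4.02 and 4.52 in DKO Dex+ cells, against 4.22 and 4.10 in DKO PE.

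The largest decrease was that of Ptk6, a tyrosine kinase of epithelial cells, at 3.88 and 3.97 in DKO Dex+ cells, against 9.13 and 8.82 in DKO PE (-5.05 ± 0.17, adjusted p = 2.14e-10). Dnmt3l, the cofactor of the 2 deleted methyltransferases that has no catalytic activity of its own, was at 6.40 and 5.70 in DKO Dex+ cells, against 10.75 and 10.32 in DKO PE (-4.49 ± 0.30, adjusted p = 2.55e-07), on 1 probe set that can cross-hybridise. Cmklr1, the receptor of chemerin, was at 4.96 and 5.05 in DKO Dex+ cells, against 9.05 and 9.10 in DKO PE (-4.08 ± 0.28). Ptk6 was low in every other DKO state, at 3.41 and 3.41 in DKO Dex- cells, 3.45 and 3.55 in sorted mesoderm and 3.66 and 3.48 in ES cells. Cck, the peptide hormone whose promoter is printed above, was at 5.06 and 4.96 in DKO Dex+ cells, against 8.33 and 9.08 in DKO PE (-3.69 ± 0.23). The semaphorin Sema6d was at 7.05 and 7.10 in DKO Dex+ cells, against 10.45 and 11.10 in DKO PE (-3.70 ± 0.27). Ankrd33b (-3.74 ± 0.21), the peroxisomal thiolase Acaa1b (-3.29 ± 0.26), the kinase Tnk1 (-3.29 ± 0.23), the scaffold protein Pdzd3 (-3.06 ± 0.18), the keratin Krt6a (-3.0 ± 0.24) and the complement inhibitor Serping1 (-2.79 ± 0.36) were the others of the 15 not named with their pathways below. The 30 leading genes had 40 further probe sets between 18 of them, and all 40 differed in the same direction, but only 15 of them at least 2-fold. Those short of 2-fold included all further probe sets of Sema6d (-0.27 to -0.24), Ankrd33b (-0.88 and -0.28), Cmklr1 (-0.70) and Tnk1 (-0.91 and -0.59).

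Most genes of extraembryonic endoderm did not pass, and a few were lower. Of 11 primitive endoderm transcription factors 0 were higher and 2 lower (median -0.27). Sox7 stood at 8.64 and 8.62 in DKO Dex+ cells, against 11.76 and 11.73 in DKO PE (-3.12 ± 0.23, adjusted p = 7.62e-07), and it was at 5.96 and 5.34 in DKO Dex- cells. Its relative Sox17 was at 12.66 and 12.78 in DKO Dex+ cells, against 13.04 and 13.03 in DKO PE (-0.31 ± 0.73), and Gata6 at 11.22 and 11.24 in DKO Dex+ cells, against 11.91 and 12.22 in DKO PE (-0.84 ± 0.28, adjusted p = 0.0855). Eomes, the other factor that was lower, differed by -1.73 ± 0.33. In the list of extraembryonic endoderm surface and signalling genes 0 of 18 were higher and 2 lower (median -0.08): the secreted Wnt inhibitor Dkk1 at 6.46 and 6.64 in DKO Dex+ cells, against 9.92 and 9.14 in DKO PE (-2.99 ± 0.36) and Nostrin (-2.77 ± 0.19). Cubilin (Cubn), an uptake receptor of visceral endoderm, was at 12.06 and 11.52 in DKO Dex+ cells, against 11.48 and 12.06 in DKO PE. Parietal endoderm and basement membrane genes had 0 of 18 higher and 4 lower (median -0.28), the retinol receptor Stra6 (-2.14), thrombomodulin (Thbd, -1.53, lost when any 1 array was left out), the parathyroid hormone receptor Pth1r (-1.34, lost without DKO Dex+ replicate 1 or DKO PE replicate 2) and Snai1, which represses E-cadherin (-1.20). Matrix genes of this list did not pass, with Lama1 at 13.55 and 13.84 in DKO Dex+ cells, against 13.83 and 14.003 in DKO PE and Col4a1 at 14.36 and 14.46 in DKO Dex+ cells, against 14.50 and 14.43 in DKO PE. Of the carriers secreted by visceral endoderm, those that passed went the other way, 3 of 17 higher and 0 lower (median 0.58). The retinol carrier Rbp4 stood at 11.20 and 10.70 in DKO Dex+ cells, against 6.75 and 7.66 in DKO PE (3.75 ± 0.40, adjusted p = 2.05e-05), the protease Ctsh at 11.28 and 11.62 in DKO Dex+ cells, against 9.47 and 10.05 in DKO PE and fibrinogen beta (Fgb) at 6.40 and 6.72 in DKO Dex+ cells, against 5.39 and 5.62 in DKO PE. Ctsh and Fgb lost significance without DKO Dex+ replicate 2 or DKO PE replicate 1. Apoe was at 11.35 and 11.06 in DKO Dex+ cells, against 9.79 and 9.93 in DKO PE and did not pass (adjusted p = 0.0618). Of 16 gut endoderm genes 0 passed, and 3 had an unadjusted p under 0.05 in limma.

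**Figure D2:**
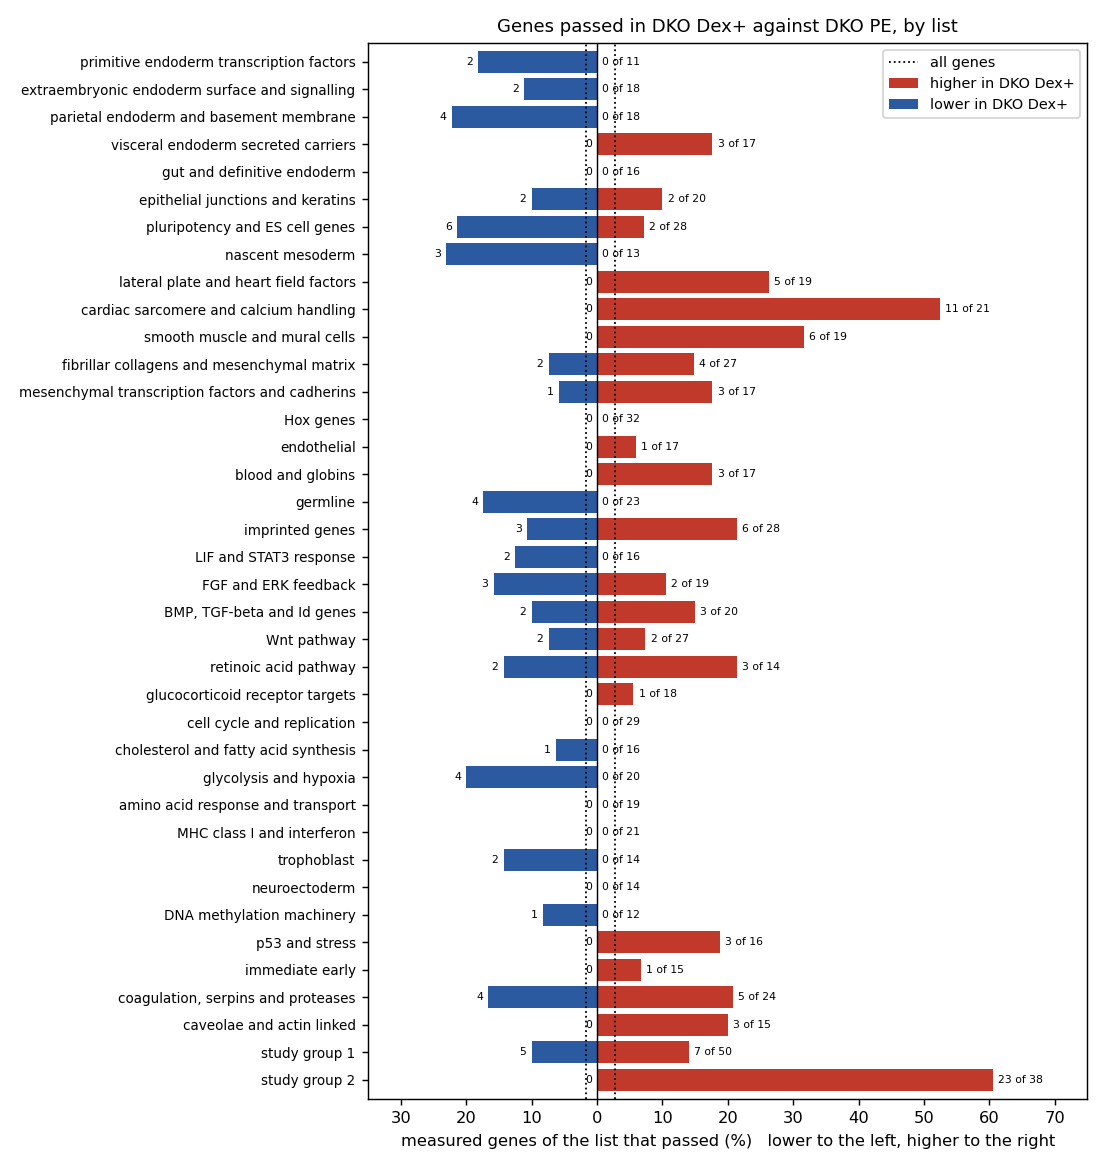
Share of the measured genes of each list that passed (horizontal axis, percent), lower in DKO Dex+ cells to the left in blue and higher to the right in red, with the number of genes at each bar. Dotted lines mark the shares over all genes, 1.74% lower and 2.73% higher, and the sarcomere list has 11 of 21 genes higher. Study groups 1 and 2 are the genes the study named as responding to Gata4 in DKO cells, group 2 being those that had not responded in ES cells.

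A minority of genes of the undifferentiated state were lower in DKO Dex+ cells. Of 28 pluripotency genes 6 were lower, 2 higher and 20 did not pass (median -0.52). Pou5f1 (Oct4) was at 4.64 and 4.23 in DKO Dex+ cells, against 7.10 and 6.94 in DKO PE (-2.58 ± 0.23), and at 11.92 and 11.74 in DKO ES cells. Zfp42 (Rex1) was at 8.17 and 7.98 in DKO Dex+ cells, against 10.34 and 10.16 in DKO PE (-2.18 ± 0.44, lost without DKO Dex+ replicate 2 or DKO PE replicate 1), Fbxo15 at 9.81 and 10.11 in DKO Dex+ cells, against 12.32 and 12.22 in DKO PE (-2.31 ± 0.34) and Sall4 at 11.35 and 11.70 in DKO Dex+ cells, against 12.94 and 13.02 in DKO PE (-1.46 ± 0.16). Dnmt3l was on this list too. Nanog (4.13 and 3.95 in DKO Dex+ cells, against 4.78 and 4.87 in DKO PE) and Sox2 (3.48 and 3.85 in DKO Dex+ cells, against 5.82 and 5.07 in DKO PE) did not pass. Tdgf1, a coreceptor of Nodal (1.38, lost without either DKO Dex+ array or DKO PE replicate 2) was 1 of the 2 that were higher. Of 4 ES cell markers Zfp42 was the brightest and weighs most in their sum, with means of 8.07 in DKO Dex+ cells and 10.25 in DKO PE. The summed level of these 4 was 8.23 to 8.41 in DKO Dex+ cells and 10.38 to 10.57 in DKO PE, against 14.41 to 14.58 in DKO ES cells. Whether remaining ES cells in the PE cultures had a part in this was not tested.

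Germline genes, many of which are silenced by DNA methylation in somatic cells, had 4 of 23 lower and 0 higher (median -0.20). Dazl, an RNA-binding protein of germ cells, was at 7.78 and 7.15 in DKO Dex+ cells, against 9.69 and 9.81 in DKO PE (-2.28 ± 0.45, lost without DKO Dex+ replicate 2), and in WT PE at 4.23 and 4.41. Dcaf8l was at 3.80 and 3.97 in DKO Dex+ cells, against 6.18 and 6.03 in DKO PE (-2.22 ± 0.19). The meiotic Sycp3 (-1.05, lost when any 1 array was left out) and Taf7l (-1.18, lost without DKO Dex+ or DKO PE replicate 2) were the others. Of 12 genes of the methylation machinery 0 were higher and 1 lower, Dnmt3l, beside 1.74% of all genes lower.

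Imprinted genes moved in both directions, 6 of 28 higher and 3 lower (median 0.28). Mest, expressed from the paternal allele, was at 11.11 and 10.80 in DKO Dex+ cells, against 6.61 and 6.52 in DKO PE (4.38 ± 0.36, adjusted p = 2.18e-06). The growth factor Igf2 was at 12.17 and 12.20 in DKO Dex+ cells, against 8.62 and 9.10 in DKO PE (3.33 ± 0.59), Grb10 at 13.18 and 13.33 in DKO Dex+ cells, against 10.00 and 9.90 in DKO PE (3.30 ± 0.19) and the cell cycle inhibitor Cdkn1c at 10.33 and 10.68 in DKO Dex+ cells, against 7.39 and 7.82 in DKO PE (2.90 ± 0.32). In contrast the noncoding RNAs Meg3 and Rian, neighbours in 1 imprinted cluster and expressed from the maternal allele, were lower. Meg3 was at 7.24 and 5.85 in DKO Dex+ cells, against 9.43 and 10.39 in DKO PE (-3.37 ± 0.60), and all 11 of its probe sets had the lower mean in DKO Dex+ cells, by -3.37 to -0.19. Its call was lost when the probe sets were averaged. Rian was at 6.44 and 6.05 in DKO Dex+ cells, against 8.85 and 8.71 in DKO PE (-2.54 ± 0.47). Alleles were not distinguished by the array.

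The embryonic globins Hbb-y and Hbb-bh1 were higher, and another, Hba-x, did not pass (5.86 and 5.85 in DKO Dex+ cells, against 5.61 and 5.58 in DKO PE). Hbb-y was at 9.15 and 9.22 in DKO Dex+ cells, against 3.54 and 3.68 in DKO PE (5.57 ± 0.32, adjusted p = 7.67e-08) on a probe set that can cross-hybridise. Another probe set of that kind differed by 5.52, but the third, not marked in this way, differed by 0.30 and did not pass. Hbb-bh1 was at 8.47 and 8.25 in DKO Dex+ cells, against 6.06 and 5.65 in DKO PE (2.50 ± 0.19) and differed by 3.15 and 1.08 on 2 further probe sets. Some globin genes resemble one another in sequence, and which of them these probe sets read was not examined. The third higher gene of the 17 on the blood list was Runx1 (1.03, lost without DKO Dex+ replicate 1 or DKO PE replicate 2). The haematopoietic factor Gata1 was at 4.78 and 4.97 in DKO Dex+ cells, against 5.04 and 4.67 in DKO PE and the leukocyte antigen Ptprc at 3.91 and 4.04 in DKO Dex+ cells, against 3.73 and 3.95 in DKO PE, both dim and not past the test. Of 17 endothelial genes 1 was higher, beside 2.73% of all genes, and this single gene is not read as a change of the list. It was the angiopoietin receptor Tek, at 12.06 and 12.15 in DKO Dex+ cells, against 10.03 and 9.25 in DKO PE (2.46 ± 0.34). The mean of Tek in DKO Dex- cells was 10.57. VE-cadherin (Cdh5) was at 6.02 and 6.28 in DKO Dex+ cells, against 5.68 and 5.82 in DKO PE.

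Signalling genes changed in small numbers and in both directions. In the BMP, TGF-beta and Id list 3 of 20 were higher and 2 lower. Id3, a target of BMP signalling, was at 10.04 and 10.06 in DKO Dex+ cells, against 6.62 and 6.18 in DKO PE (3.65 ± 0.34), the inhibitory Smad6 at 8.11 and 8.59 in DKO Dex+ cells, against 4.38 and 4.97 in DKO PE (3.67 ± 0.32) and the pseudoreceptor Bambi at 9.02 and 9.04 in DKO Dex+ cells, against 7.20 and 6.96 in DKO PE (1.95 ± 0.25). The BMP antagonist Nog was lower (-1.61 ± 0.21), and so was Id4, at 6.75 and 6.65 in DKO Dex+ cells, against 9.98 and 9.20 in DKO PE (-2.89 ± 0.39), against the direction of Id3. Among 27 Wnt pathway genes the agonist Rspo3 (3.06 ± 0.42) and the ligand Wnt4 (2.26 ± 0.44, lost without DKO Dex+ replicate 1 or DKO PE replicate 2) were higher, and the secreted inhibitors Dkk1 and Frzb (-2.17 ± 0.43, lost without DKO Dex+ replicate 1) lower. FGF and ERK feedback genes were split as well, with the phosphatases Dusp4 (2.33) and Dusp6 (1.68) higher and the ligand Fgf3 (-2.29) and the antagonists Spry2 (-1.21) and Il17rd (-1.32) lower, of 19. Dusp6 and Spry2 did not pass when any 1 of the 4 arrays was left out, and Il17rd was lost in 3 of these 4 settings.

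Retinoic acid genes moved in both directions. Aldh1a1, an enzyme that makes retinoic acid, was at 9.77 and 8.27 in DKO Dex+ cells, against 4.31 and 4.22 in DKO PE (4.75 ± 0.40, adjusted p = 2.28e-06), and Rbp4 and the receptor Rarb (1.13, lost without DKO Dex+ replicate 1 or DKO PE replicate 2) were higher too. The degrading enzyme Cyp26a1, at 10.62 and 10.94 in DKO Dex+ cells, against 12.12 and 12.43 in DKO PE (-1.5 ± 0.24), and the uptake receptor Stra6, at 5.72 and 5.77 in DKO Dex+ cells, against 7.69 and 8.09 in DKO PE (-2.14 ± 0.23), were lower. The other 9 of 14 genes did not pass.

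Agents that differed or were shared between the cultures had their own lists. LIF was present in the PE medium only, and of 16 genes of the LIF and STAT3 response 2 were lower and 0 higher (median -0.16). The feedback inhibitor Socs3 was at 9.91 and 10.48 in DKO Dex+ cells, against 11.29 and 11.34 in DKO PE (-1.12 ± 0.27) and the kinase Pim3 at 10.51 and 10.44 in DKO Dex+ cells, against 11.64 and 11.36 in DKO PE (-1.02 ± 0.19), each just past 2-fold. Socs3 was lost without DKO Dex+ replicate 1 or either DKO PE array, and Pim3 without DKO Dex+ replicate 2 or DKO PE replicate 1. Within the shared scan day neither passed. Dex was present in both cultures, and of 18 glucocorticoid receptor targets 1 was higher and 0 lower, beside 2.73% and 1.74% of all genes. It was Pdk4, at 6.13 and 6.20 in DKO Dex+ cells, against 4.80 and 5.08 in DKO PE (lost when any 1 array was left out). Of the glycolysis and hypoxia genes 4 of 20 were lower and 0 higher, with the angiogenic factor Vegfa at 7.06 and 7.43 in DKO Dex+ cells, against 9.76 and 9.13 in DKO PE (-2.20 ± 0.38), the prolyl hydroxylase Egln3 at 8.39 and 8.24 in DKO Dex+ cells, against 9.96 and 10.30 in DKO PE (-1.82 ± 0.27), Pfkl (-1.33, lost without 3 of the 4 arrays in turn) and Ankrd37 (-1.29, lost without DKO Dex+ replicate 2 or DKO PE replicate 1). Among 24 genes of coagulation, serpins and proteases 5 were higher and 4 lower, with the serpin Serpinb9 (2.67, lost when any 1 array was left out), the inhibitor Tfpi2 (2.01) and the protein C receptor Procr (1.97, lost without DKO Dex+ replicate 1 or DKO PE replicate 2) on the higher side and Thbd and Serping1 on the lower. Of 16 p53 and stress genes 3 were higher, the quinone reductase Nqo1 at 7.77 and 7.33 in DKO Dex+ cells, against 4.96 and 4.74 in DKO PE (2.70 ± 0.21), Pmaip1 (2.05, lost without DKO Dex+ or DKO PE replicate 2) and Gclm (1.02, lost without DKO Dex+ replicate 1 or either DKO PE array, and with scan day as a block).

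In 5 further lists 0 genes passed in limma. They were 32 Hox genes (median 0.01, 2 genes at an unadjusted p under 0.05), 29 genes of the cell cycle and replication (median -0.24, 6 genes), 19 of the amino acid response (median -0.13, 4 genes), 21 of MHC class I and interferon (median 0.01, 4 genes) and 14 neuroectoderm genes (median 0.05, 0 genes). The cyclin Ccna2, for example, was at 10.76 and 10.82 in DKO Dex+ cells, against 11.42 and 11.64 in DKO PE (-0.73 ± 0.30, adjusted p = 0.193). Other short lists held 1 or 2 changes each, beside 2.73% of all genes higher and 1.74% lower. Atf3 (1.02) of 15 immediate early genes was higher, Scd1 (-1.19) of 16 lipid synthesis genes lower, and Tfap2c (-2.57) and Tead4 (-1.21) of 14 trophoblast genes lower. Atf3 and Scd1 were each lost without DKO Dex+ replicate 1 or either DKO PE array. Nascent mesoderm had 3 of 13 lower (Eomes, Snai1 and Tlnrd1, the last listed under its older name Mesdc1) and 0 higher, and Tlnrd1 was lost without DKO Dex+ or DKO PE replicate 1. Eomes and Snai1 are also members of the endoderm lists above and were counted there too. The other probe set of Tlnrd1 differed by only -0.07. The study named 2 gene groups for their Gata4 response in DKO cells co-cultured with OP9 stroma, on other samples. Of 38 genes of the group that had not responded in ES cells 23 were higher and 0 lower (median 1.51), and of 50 genes of the group that had responded in ES cells too 7 were higher and 5 lower (median 0.11). The first was chosen partly for not responding in ES cells, so its direction against PE is not independent evidence.

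The other DKO states place the leading genes differently, and since these share the arrays of DKO Dex+ cells and DKO PE only the levels are set side by side. Some genes high in DKO Dex+ cells were high in DKO Dex- cells too. Acta2 was at 14.09 and 13.19 in DKO Dex+ cells and 9.94 and 8.78 in DKO PE, and at 14.95 and 14.91 in DKO Dex- cells. Col1a2 was at 10.39 and 10.03 in DKO Dex+ cells and 6.42 and 6.52 in DKO PE, and at 13.37 and 13.43 in DKO Dex- cells. Cdh2 was at 11.37 and 11.20 in DKO Dex+ cells and 6.60 and 5.42 in DKO PE, and at 12.29 and 12.58 in DKO Dex- cells. Actc1 was at 12.49 and 11.59 in DKO Dex+ cells and 5.58 and 5.49 in DKO PE, and at 13.01 and 13.14 in DKO Dex- cells. In all 4 cases DKO Dex- cells were the highest, while Tnnt2, at 8.79 and 10.42 in DKO Dex- cells, was higher still in DKO Dex+ cells. For others, DKO Dex+ cells stood above every other DKO state. Myl7 reached 12.59 and 12.36 in DKO Dex+ cells, against 6.51 and 6.78 in DKO Dex- cells and 10.04 and 9.84 in sorted mesoderm. Rbp4 was at 11.20 and 10.70 in DKO Dex+ cells and at 5.46 and 5.39 in DKO Dex- cells, with DKO PE in between. Hbb-bh1 was at 8.47 and 8.25 in DKO Dex+ cells and at 5.89 and 6.06 in DKO Dex- cells. Among the decreases Dnmt3l was highest in DKO ES cells (12.32 and 12.22), and DKO Dex- cells, at 6.30 and 6.51, lay with DKO Dex+ cells. Id4 was at 6.75 and 6.65 in DKO Dex+ cells, below DKO PE and below DKO Dex- cells (7.71 and 8.33).

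**Figure D3:**
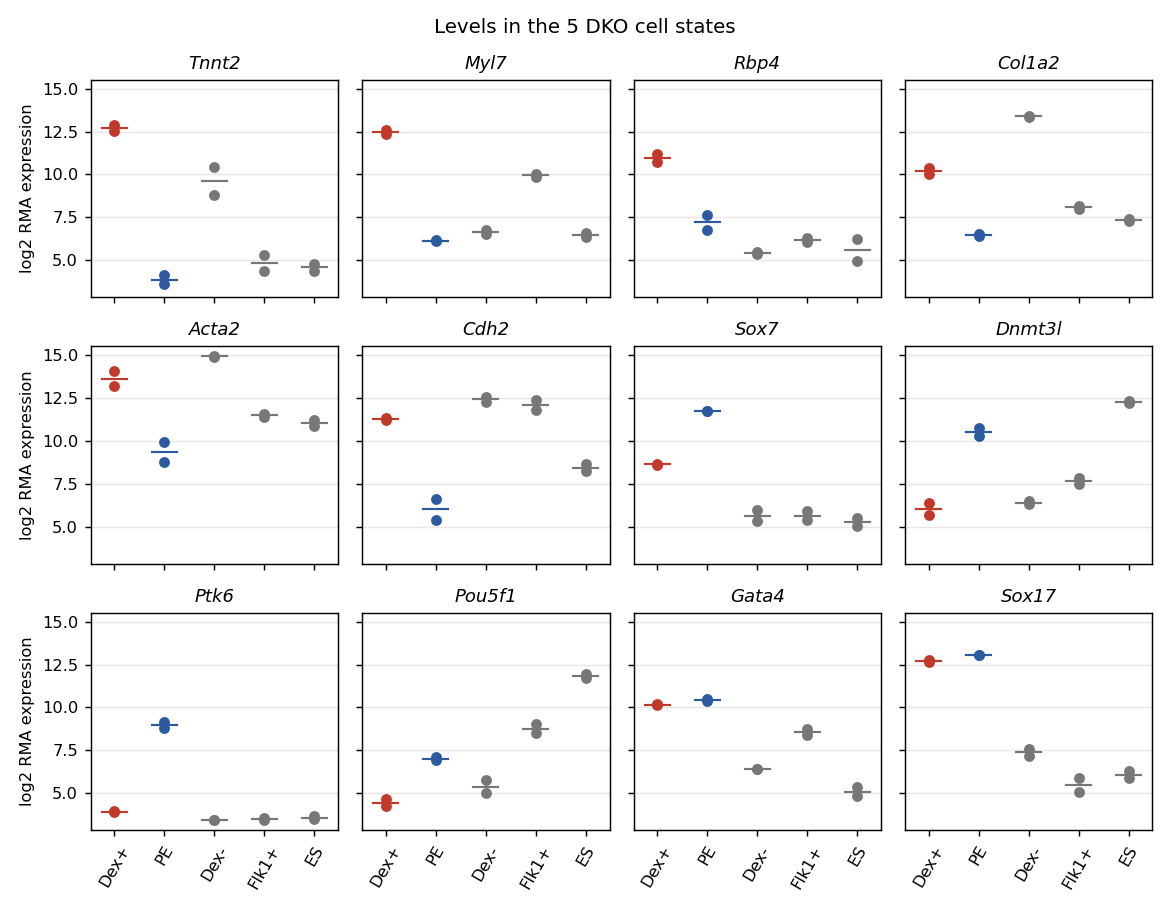
Log2 RMA expression (vertical axis) of 12 genes in the 5 DKO cell states (horizontal axis), with DKO Dex+ cells in red, DKO PE in blue and the other states in grey. Points are arrays and lines are means of 2, and Gata4 and Sox17 are at like levels in DKO Dex+ cells and DKO PE while Myl7 and Rbp4 are highest in DKO Dex+ cells.

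In WT cells more genes passed in the same comparison. There 2244 genes passed (12.3%), 1116 higher (6.13%) and 1128 lower (6.20%) in WT Dex+ cells, and across genes the correlation of WT Dex+ with WT PE arrays was 0.932 to 0.942. Of the 496 genes higher in DKO Dex+ cells 294 were also higher in WT Dex+ cells, 59.3% of the DKO list and 26.3% of the WT list, and 18 were lower. Of the 317 genes lower in DKO Dex+ cells 186 were lower in WT too, 58.7% of the DKO list and 16.5% of the WT list, and 9 were higher. The difference between the genotypes, DKO minus WT, was tested as an interaction and passed for 1237 genes (6.80%), 642 above 0 (3.53%) and 595 below (3.27%). Tnnt2 differed little between the genotypes, with 8.84 in DKO and 8.55 in WT (0.29 ± 0.76, adjusted p = 0.927).

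Several endoderm and uptake genes passed above 0. Of the 11 primitive endoderm factors the difference passed above 0 for 5, and of 28 pluripotency genes for 18. Pou5f1, Nanog and Sox2 were low in both Dex+ groups, with means of 4.44, 4.04 and 3.67 in DKO and 4.41, 4.35 and 4.00 in WT. Their PE means lay further apart, at 7.02, 4.83 and 5.45 in DKO and 9.39, 7.14 and 9.67 in WT. Zfp42 lay apart in Dex+ cells, at 8.07 in DKO and 5.27 in WT, with PE means of 10.25 and 11.17. Cubn differed by 0.02 in DKO and -5.96 in WT, Srgn by -0.31 and -6.20, and Tdgf1 by 1.38 and -5.39. Mesenchymal genes that passed lay mostly below 0, among them 18 of 27 of the collagen and matrix list and 9 of 19 of the smooth muscle list. Cav1, the main caveolin, differed by 0.15 in DKO and 6.90 in WT, Pdgfrb by -1.55 and 4.85, and Col1a1 by 1.17 and 6.90. For Meg3 and Rian the signs were opposite, -3.37 and -2.54 in DKO and 2.72 and 2.89 in WT. Of the cardiac sarcomere genes 4 of 21 passed above 0 and 0 below, Myl7 among them (6.34 in DKO and 4.00 in WT). Within the scan day shared by 3 arrays of each genotype the interaction count was 632. The plot of both differences shows the 2 arms that leave the diagonal.

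**Figure D4:**
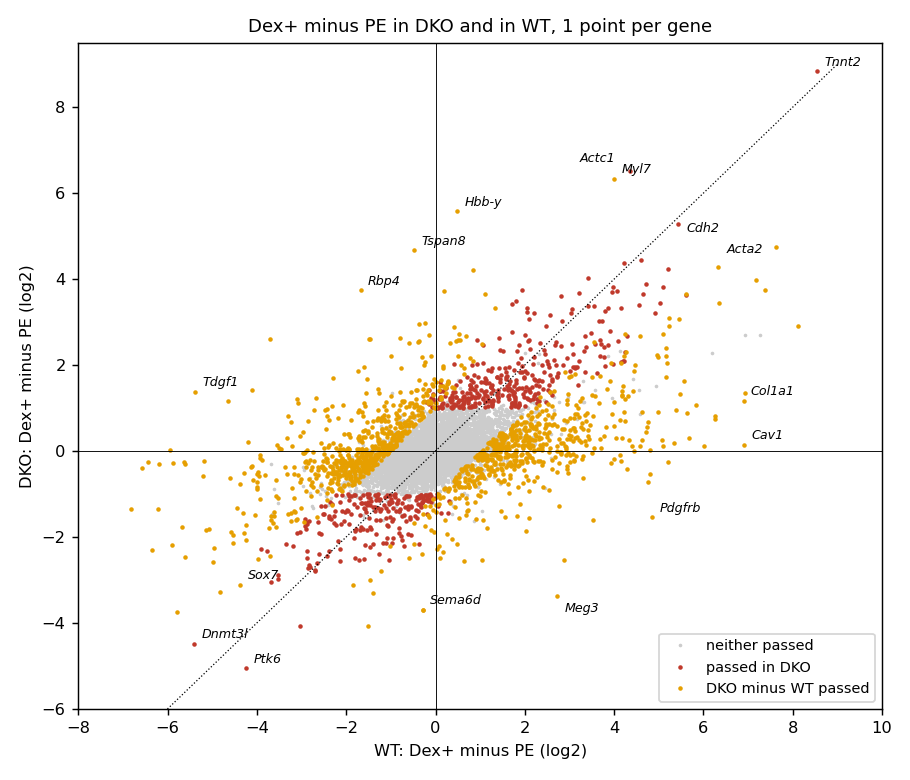
Dex+ minus PE on the log2 scale in DKO cells (vertical axis) and in WT cells (horizontal axis), 1 point per gene. Orange points passed the test of DKO minus WT, whether or not they passed in DKO, red points passed in the DKO comparison but not in that test, and the dotted line marks equal differences. Tnnt2 lies near the line at 8.84 in DKO and 8.55 in WT, while Cav1 lies at 0.15 in DKO and 6.90 in WT.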

How the data were processed

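RNA was measured on 20 Affymetrix MOE430v2 arrays, 2 per group, labelled biological replicates (independent experiments, per the methods). RNA was labelled in 2 cycles from 50 ng. The deposited log2 values of 45101 probe sets were made by the authors with RMA (version and joint summary not given in the sources used here). Of these, 34958 had 1 gene symbol in the platform annotation, and each of 18194 genes was read by its brightest probe set over all arrays. The deposited scan records gave scan day and chip lot.

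A linear model with 1 mean for each group was fitted over the 20 arrays in limma 3.58.1 in R 4.3.3 (10 residual and 4.54 prior degrees of freedom), with Benjamini-Hochberg adjustment. The study's methods name SAM, which was not used here. The fit was tested on simulated data. The number of arrays limits the precision. Named genes were the 15 largest differences each way with separated arrays, the 8 largest between genotypes each way and up to 6 per list. The comparison, the 38 lists (778 of 827 entries measured) and the tests were chosen with earlier results of these data known. Settings varied were the filter, probe set choice, scaling, variance model, arrays fitted, scan day, replicate block, single arrays and a test against 2-fold. Promoter windows came from RefSeq (GRCm38.p6).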

Additional observations from a re-analysis of the deposited data

Results flagged for a closer look

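The results below drew attention because the Dex+ minus PE difference itself differed between DKO and WT cells in the interaction test of limma. Groups of 2 arrays are too small for a test of single arrays. In total 1237 genes passed this test, and the values that follow are DKO minus WT on the log2 scale.

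The largest values above 0 were those of the Nodal coreceptor Tdgf1 (6.76 ± 0.53, adjusted p = 2.28e-06), Morc1 (6.31) and Mageb16 (6.19), both known from germ cells, Trap1a (6.18), the uptake receptor Cubn (5.98), the proteoglycan Srgn (5.89), the protease inhibitor Spink1 (5.81) and the pepsinogen Pga5 (5.60). Mageb16 was at 11.09 and 11.01 in DKO Dex+ cells and 11.43 and 11.17 in DKO PE, and at 4.40 and 5.08 in WT Dex+ cells and 11.33 and 11.04 in WT PE. Both DKO groups thus stood near WT PE, and WT Dex+ cells alone were low.

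The largest below 0 were those of the caveolin Cav1 (-6.76), the mural receptor Pdgfrb (-6.40), the imprinted RNA Meg3 (-6.09), the chemokine Cxcl12 (-5.91), the collagen Col1a1 (-5.73), the matrix protein Postn (-5.59), the protease Mmp2 (-5.52) and the factor Snai2 (-5.50). Cav1 was at 6.55 and 6.28 in DKO Dex+ cells and 6.32 and 6.22 in DKO PE, and at 13.19 and 13.20 in WT Dex+ cells and 6.22 and 6.36 in WT PE.

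Of the genes leading the DKO comparison, 14 besides Meg3 also passed. For the higher ones the values were 5.14 for Tspan8, 5.09 for Hbb-y, 3.36 for Apela, 2.33 for Myl7, -2.04 for Acta2, -2.86 for Aldh1a1 and -3.19 for Col4a5. For the lower ones they were 2.05 for Ankrd33b, 1.54 for Tnk1, 1.26 for Sox7, -1.53 for Krt6a, -1.89 for Acaa1b, and -3.42 for both Sema6d and Cck.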

How the results depend on the processing

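No named gene that passed in the DKO comparison changed sign under a setting run. Its count of 813 stayed within 1.5 times under all settings except the test against a 2-fold difference, which called 169 in DKO, 812 (of 2244) in WT and 234 (of 1237) for the genotype difference. The genotype difference also moved to 632 within scan day 3 and to 791 on the 8 arrays of that day, the second setting having been chosen after seeing the data. Without 1 array at a time the counts were 611 to 687 in DKO, 1992 to 2416 in WT and 852 to 1253 for the genotype difference. The replicate block gave 815 in DKO, 2256 in WT and 1290 for the genotype difference over 20 arrays, and 930 and 2254 on the 4 arrays of each genotype. Deviations of same-numbered arrays correlated at 0.115 in DKO and -0.262 in WT over 2 pairs, so the numbers were not taken as pairs. The crossed pairing gave 930 calls in DKO and 2323 in WT on the 4 arrays. Genes at least 2-fold apart by their means numbered 932 in DKO and 2323 in WT. The p-value thus set little or no limit there, and these counts cannot show whether the pairing matters. Without the 4 freshly sorted arrays, a setting also chosen after seeing the data, the counts were 909 in DKO, 2304 in WT and 1568 for the genotype difference. Averaging probe sets gave 601 calls in DKO. The Hnf4a genotype difference (1.71) turned to -0.0643 without cross-hybridising probe sets. There Hbb-y (0.30) and Acta2 (0.66) lost their DKO calls. Values near the dim end of the array have no detection limit here, so large folds from them are not exact. Causes of these moves were not tested.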
